A study of Mus musculus with 2 samples.

Results

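Among murine bone marrow cells induced toward osteoclasts (OCs), 600 of 10772 kept cells held no transcript of a set of cycling genes and none of a set of OC genes. These cells, called members from here on, were bone marrow-derived macrophages (BMDMs) by their transcripts. Kept cells had at least 500 detected genes, at most 10% of unique molecular identifiers (UMIs, each marking 1 captured mRNA molecule) from mitochondrial genes and at least 10000 UMIs. Members had 0 UMIs of each of 8 genes, namely the cycling genes Mki67, Top2a, Aurka and Cdk1 and the OC genes Ctsk, Mmp9, Acp5 and Dcstamp, and less than 5% of their UMIs from the neutrophil genes S100a8 and S100a9. The control library gave 279 members of 5896 kept cells and the LysM-Cre;Arid1afl/fl library, called the mutant library, gave 321 of 4876. Because UMI counts of these cells chose the members, differences between members and other kept cells of the same library are given as descriptions.

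Single-cell mRNA sequencing had been done on bone marrow cells of mice 24 h after RANKL was added. Both cultures received 50 ng/ml M-CSF, the growth factor that keeps macrophages alive, and 100 ng/ml RANKL, the cytokine that induces OCs. In the LysM-Cre;Arid1afl/fl animal, Cre is expressed from the Lyz2 locus in myeloid cells and deletes its floxed segment of Arid1a, which encodes a BAF (chromatin remodeler) subunit, while the other genotype is named only as control in the labels. Each genotype is 1 library, so no difference between the libraries has a replicate check, no test across samples was possible, and the 95% intervals given here cover counting error only.

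Macrophages depend on the M-CSF receptor Csf1r and carry the surface protein F4/80, which is encoded by Adgre1. Under M-CSF and RANKL, BMDMs first divide, then leave the cell cycle and turn on a program led by Nfatc1, which brings genes of fusion (Dcstamp) and of bone resorption (Ctsk, Mmp9, Acp5). Macrophages also sense type I interferon, which turns on a broad antiviral set of genes through factors that the receptor activates, and in tissues they take on resident features such as complement C1q and high lysosomal and lipid-handling activity. Members therefore hold neither the transcripts of division nor those of the OC fate that the rule asked about.

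In all, 6455 barcodes and 164004706 UMIs came from the control library, and 5865 barcodes and 131800059 UMIs from the mutant library, and 8 barcodes occurred in both libraries, none of them a member. Levels are UMIs of a gene summed over a group of cells and scaled to the same total of UMIs for every group (CPM). Members were shallower than the other kept cells, with medians of 18880 against 25049 UMIs in the control library and 17189 against 23978 in the mutant library. The rule favours shallow cells, since a cell with fewer UMIs more often shows 0 of a gene that it transcribes. The gene targeted in the mutant, Arid1a (ENSMUSG00000007880, chr4:133406304-133484080 of GRCm39, minus strand), had 221 UMIs or 40.3 CPM (35.2 to 46.0) in control members and 104 UMIs or 17.4 CPM (14.2 to 21.0) in mutant members. The log2 ratio of mutant over control was -1.22 (-1.57 to -0.87), so the level was lower in the library labelled as mutant but not at 0. Counting is from the 3′ end, and recombined transcripts that keep this end are still counted. Other kept cells had 52.2 and 20.3 CPM. Whether counting used the strand was not stated, so the values of genes that overlap another gene on the opposite strand are uncertain. Adgre1, Arid1a, AW112010, C1qa, Ccl7, Cxcl2, Emp2, Fcgr1, Ifit3, Ms4a7, Rnase4, Spp1 and Zbp1 have no such overlap in the GENCODE annotation. Neither do Aurkb, Birc5, Ccl2, Ccl4, Ccl12, Ccr2 and Cd74, among others. Further genes named below, such as Apoe, B2m and Ccl5, have one.

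Members made up 4.73% (4.20 to 5.31%) of kept control cells and 6.58% (5.90 to 7.32%) of kept mutant cells, a difference of 1.85 percentage points (0.96 to 2.75). Asking for 0 UMIs at an equal depth, after every kept cell was thinned at random to 10000 UMIs, gave 691 control cells (11.7%) and 721 mutant cells (14.8%), and the difference was 3.07 points (1.77 to 4.38). The share was lower in deeper cells of both libraries. In the shallowest of 4 equal bins of kept cells, below 18788.8 UMIs, members were 10.9% of control and 13.4% of mutant cells, and in the deepest bin, from 31622.5 UMIs, they were 0.984% and 1.46%. The mutant share was the higher one in each of the 4 bins, with overlapping intervals in each. With a minimum of 20000 UMIs per cell, members were 2.60% and 3.23%, and the interval of the difference included 0 (0.63 points, from -0.16 to 1.44).

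**Figure D1:**
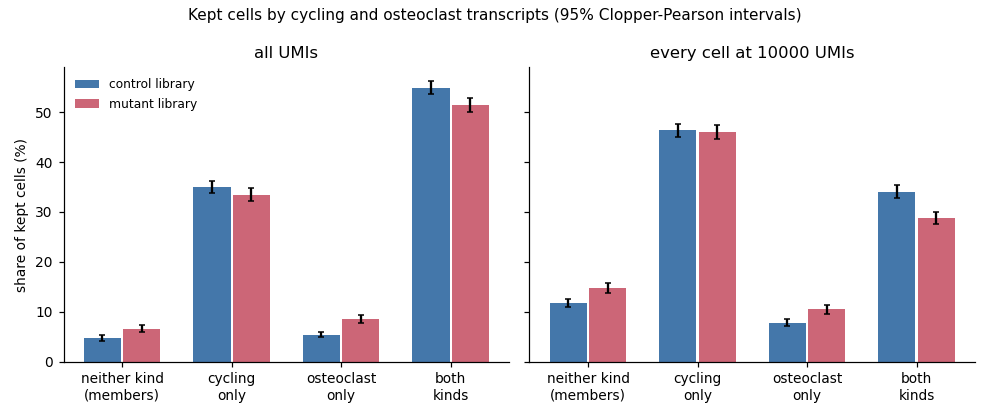
Shares of kept cells (percent, vertical axis) that held neither kind of transcript (members), cycling transcripts only, osteoclast transcripts only or both kinds, with all UMIs (left) and with every cell at 10000 UMIs (right). Bars are the control and mutant libraries and lines are 95% Clopper-Pearson intervals. Members were 4.73% and 6.58% with all UMIs and 11.7% and 14.8% at 10000 UMIs.

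The 3 remaining groups of kept cells place the members among the culture. Cells with OC transcripts only were also a larger share in the mutant library, 8.45% against 5.43% (a difference of 3.02 points, 2.04 to 4.01). A single UMI was enough to enter this group. The 4 OC genes of the rule summed to 148 CPM in these mutant cells and 419 CPM in these control cells, so the larger share came with a lower level. Cells with cycling transcripts only were 33.5% against 35.0% (-1.50 points, -3.31 to 0.31), and cells with both kinds were 51.5% against 54.9% (-3.37 points, -5.27 to -1.46). At 10000 UMIs per cell the cells with both kinds were 28.8% and 34.1%. With all UMIs, members were the smallest of the 4 groups in both libraries.

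At the edges of the rule, the shallowest members had 10172 UMIs in control and 10023 in mutant cells, and the deepest barcodes left out by UMI count alone had 9866 and 9862. The UMI minimum alone left out 99 control and 254 mutant barcodes. A further 378 control and 424 mutant kept cells had exactly 1 UMI of the 8 genes, at medians of 19801 and 19572.5 UMIs. The neutrophil limit removed no cell that met the other conditions, and the highest share of S100a8 and S100a9 in a member was 0.128% in control and 4.53% in mutant cells.

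The label of the members as macrophages was checked against markers. Csf1r had 288 CPM (274 to 302) in control members and 431 CPM (414 to 448) in mutant members, against 254 and 399 CPM in the other kept cells. Adgre1 had 205 CPM (193 to 217) and 607 CPM (587 to 627), against 144 and 528 CPM. At 10000 UMIs per cell, Csf1r was seen in 90.7% of control and 95.3% of mutant members and Adgre1 in 74.9% and 95.6%. In neutrophil-rich barcodes, which should lack both genes, Csf1r was seen in 2 of 16 control (12.5%) and 21 of 83 mutant barcodes (25.3%), and Adgre1 in 6.25% and 24.1%, at median depths of 6885.5 and 9433 UMIs. Both shares in members of each library lay above those in these shallower neutrophil-rich barcodes.

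Other macrophage genes had high levels as well. The lysosomal protein Cd68 had 576 and 662 CPM, the myeloid factor Spi1 448 and 589 CPM, and the signalling adaptors Tyrobp and Fcer1g 2261 and 2331 CPM in control members and 3616 and 3541 CPM in mutant members. The high-affinity IgG receptor Fcgr1 had 47.4 CPM in control and 172 CPM in mutant members. Lyz2, the lysozyme gene whose locus carries Cre in the mutant, had 15141 and 6141 CPM, and the part of the Cre insertion in that difference was not tested.

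Markers of 5 other cell lineages were near 0 in members, and those of neutrophils, endothelial cells and megakaryocytes were partly present. Summed over the list, 11 T and NK cell markers had 0 CPM in control and 2.5 CPM in mutant members, 8 erythroid markers 0.18 and 0.17 CPM, 7 mast cell and basophil markers 0.18 and 0.67 CPM, 8 B cell markers 2.55 and 4.50 CPM, and 10 dendritic cell markers 1.82 and 8.51 CPM. The 12 neutrophil markers had 81.0 and 198 CPM, against 125 and 1431 CPM in other kept cells. They include S100a8 and S100a9, which the rule itself limited in members. These 2 genes made up 21.0 and 119 CPM in members and 69.8 and 1173 CPM in other kept cells, so this contrast is partly set by the rule. The 8 endothelial and megakaryocyte markers had 762 and 902 CPM, against 656 and 799 CPM in other kept cells, of which Pf4, a chemokine gene that is also in the tissue-type macrophage list, made up 751 and 889 CPM. The defining markers Itga2b, Gp9 and Emcn had 0 UMIs in members and Pecam1 had 1 UMI in each library. The 12 stromal markers had 60.2 CPM in control members, where 1 cell held 329 of 330 UMIs, and 0.50 CPM in mutant members.

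A small number of members carried another signature. In the mutant library, 1 member held 109 of 116 UMIs of Elane, 167 of 185 of Prtn3 and all 39 of Mpo, which encode granule proteins of neutrophil precursors. Cells with at least 10 UMIs of the MHC class II genes H2-Aa, H2-Ab1 and H2-Eb1 were 1 of the control members (0.358%) and 7 of the mutant members (2.18%), against 0.125% and 1.08% of the other kept cells. These 7 cells held 895 of 920 class II UMIs of the mutant members, with 359 CPM of Csf1r and 219 CPM of Adgre1. They also held 1230 of 3017 UMIs of the chemokine gene Ccl5, but at a median of 2 UMIs per cell, so this sum rested on few of them. The single control cell held 230 of 250 class II UMIs, with 3 UMIs of Csf1r and none of Adgre1. The class II values of members below therefore describe mainly these 8 cells. A doublet score by simulation removed 333 control and 275 mutant barcodes at the highest scores, and no member was among them.

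Cell cycle genes outside the rule were low in members, as cycling genes were part of the rule. Of 23 S-phase genes averaging at least 20 CPM, 23 were at least 1.5-fold lower in members than in other kept cells of the control library and 22 in the mutant library, with median log2 ratios of -1.68 and -1.71. Over all 5060 genes at this level, 470 (9.29%) were at least 1.5-fold lower in control members and 268 (5.3%) in mutant members, and the medians were -0.07 and -0.02. Of 24 G2/M genes, 23 and 24 were lower by this fold, with medians of -3.05 and -2.68. Since the contrast is the one the rule set, these counts describe how far the 4 cycling genes separated the cells.

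The largest of these differences belonged to genes of the mitotic spindle and cytokinesis. Prc1, which bundles the microtubules of the spindle midzone, had 3.28 CPM in control members and 98.1 CPM in other control cells, and 2.67 and 119 CPM in the mutant library. Kif11, the motor that pushes the spindle poles apart, had 2.37 and 43.4 CPM in the control and 2.00 and 47.9 CPM in the mutant library. Nusap1, Aurkb, Anln, Kif20b, Cenpe and Cenpf, and the replication-linked histone gene H1f5, were among the 10 genes with the lowest mean ratio. The remaining one was Ngp, a neutrophil granule gene, with 0 UMIs in control members and 6.84 CPM in mutant members.

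Members were not empty of cell cycle transcripts. Pcna, the sliding clamp of DNA replication, had 144 CPM in control and 182 CPM in mutant members, against 296 and 354 CPM in the others. Birc5, a chromosomal passenger protein of mitosis, had 92.5 and 65.2 CPM, and Ube2c, which serves the anaphase-promoting complex, had 58.0 and 55.7 CPM. At 10000 UMIs per cell, the summed S-phase list had a median of 7 UMIs in control and 6 in mutant members (24 and 20 in others), and the summed G2/M list a median of 3 in both (17 and 13 in others). The highest G2/M sum in 1 member was 57 in control and 66 in mutant cells. The D-type cyclin Ccnd1, which M-CSF induces, was at a like level in members and others, with 645 and 588 CPM in the control and 941 and 896 CPM in the mutant library. The cell cycle inhibitor Cdkn1a had 186 and 181 CPM in the control and 242 and 234 CPM in the mutant library.

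Promoters of cell cycle genes often hold the cell cycle genes homology region (CHR), with the letters TTTGAA, at which late cell cycle genes are repressed outside division. It was searched on both strands of the 250 bases before each gene's start (RefSeq, GRCm38.p6), and was found in 7 of 22 listed G2/M genes with a window (31.8%), 3 of 20 listed S-phase genes (15%) and 4934 of 27025 genes (18.3%). The 3 stretches of 60 bases shown belong to genes with a match among those lowest in members or in the G2/M list. They are written 5′ to 3′ on the gene's own strand, with the match in capitals (TTCAAA is the match on the other strand).
Prc1 (chr7:80294416-80294475, plus strand): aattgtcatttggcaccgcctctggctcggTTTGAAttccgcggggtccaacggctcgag
Kif11 (chr19:37376322-37376381, plus strand): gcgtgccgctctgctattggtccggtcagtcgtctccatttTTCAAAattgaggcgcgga
Cdc20 (chr4:118437344-118437403, minus strand): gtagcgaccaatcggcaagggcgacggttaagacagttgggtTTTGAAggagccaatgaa
The matches ended 24, 13 and 12 bases before the annotated start. In G2/M genes with a match, the median log2 ratio of members over others averaged over the 2 libraries was -2.90 (6 genes), and in those without it -2.64 (15 genes).

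Genes higher in members than in the other kept cells were fewer. In the control library 161 of 5060 genes (3.18%) were at least 1.5-fold higher in members, in the mutant library 22 (0.435%), and in both 18 (0.356%). Downward, 242 genes (4.78%) were lower by this fold in both libraries. The control count was the larger one under every alternative tried, and was 160 against 19 genes without the cells that carried class II or stromal transcripts.

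Slfn5, an interferon-induced gene of the Schlafen family, was among the genes highest in members and was spread over many cells. It had 147 CPM (137 to 157) in control members and 69.6 CPM in other control cells, and 294 CPM (281 to 308) and 164 CPM in the mutant library. At 10000 UMIs per cell it was seen in 66.3% of control and 89.4% of mutant members, against 40.5% and 66.3% of the other kept cells. In neutrophil-rich barcodes it was seen in 0 of 16 in the control (exact upper limit 20.6%) and 25.3% in the mutant library. The log2 ratio of members over others was 1.07 (0.97 to 1.18) and 0.84 (0.77 to 0.91).

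The chemokine gene Ccl7, whose protein attracts monocytes, had 455 CPM in control members and 203 CPM in others, and 180 and 90.2 CPM in the mutant library. It was uneven among cells. In the mutant library 1 member held 18.5% of its UMIs and 79 of 321 members held any. Rnase4, a secreted ribonuclease, had 24.3 and 10.5 CPM in the control and 62.1 and 41.4 CPM in the mutant library. Bhlhe41, a transcriptional repressor, had 34.9 and 17.3 CPM and then 56.9 and 37.0 CPM, and the survival gene Bcl2l1 had 37.2 and 19.0 CPM and then 69.1 and 44.6 CPM. The 5 others of the 10 highest mean ratios were H2-Eb1, Cd74, AW112010, Ccl5 and Ms4a4c, of which H2-Eb1 and Cd74 rested on the class II cells named above. Ccl5 and AW112010 rested on few cells too. Of 3017 UMIs of Ccl5 in mutant members 988 were in 1 cell, and its log2 ratio of members over others was 0.08 (-0.12 to 0.28) in the control library. For AW112010 1 control member held 37 of 69 UMIs, and its control ratio was -0.66 at a minimum of 20000 UMIs. Cells with OC transcripts only stood above members of both libraries in AW112010 (45.7 and 376 CPM) and Ccl5 (122 and 727 CPM). The same held for Ms4a4c, with 17.4 and 191 CPM against 10.9 and 160 CPM in members. Slfn5 was near level with those cells in both libraries, and Bhlhe41 in the mutant library (57.4 CPM). H2-Eb1, Cd74, Ccl7, Rnase4 and Bcl2l1 were higher in members of both libraries.

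Genes of tissue-type macrophages stood higher in members than in the other kept cells of both libraries. Of 15 listed genes at the level, 7 were at least 1.5-fold higher in control members and 1 in mutant members, with median log2 ratios of 0.56 and 0.29. Over all genes 3.18% and 0.435% were higher by this fold, so the control library had the larger share outside the list too. Against cells with OC transcripts only, the medians were 0.22 and 0.15. By this fold 2 and 0 of the listed genes were higher than in those cells (0.553% and 0.672% of all genes). Against control cells with both kinds 10 were (5.14% of all genes). The transcription factor Maf had 96.9 CPM in control members and 45.4 CPM in others, and 195 and 140 CPM in the mutant library. Complement C1qa (ENSMUSG00000036887) had 393 CPM (377 to 410) in control members and 202 CPM in others, and 152 CPM (142 to 162) and 116 CPM in the mutant library. Selenop, which encodes a secreted selenium carrier, was the 1 gene at this fold in both libraries, with 51.6 and 33.3 CPM in the control and 50.9 and 31.6 CPM in the mutant library. Maf, C1qa and Selenop were each higher in members than in others of both libraries.

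A list of the 3 C1q genes with Ccl2, Ccl7 and Ccl12 was grouped from earlier results of these data and shares its C1q genes with the tissue-type list, so its counts are no separate evidence. Its 6 genes were each at least 1.5-fold higher in control members than in other control cells, and 1 of 6 was in the mutant library (3.18% and 0.435% of all genes), with medians of 0.75 and 0.22. At 10000 UMIs per cell the list had a median of 20 UMIs in control members and 9 in other control cells, and of 10 and 9 in the mutant library.

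**Figure D2:**
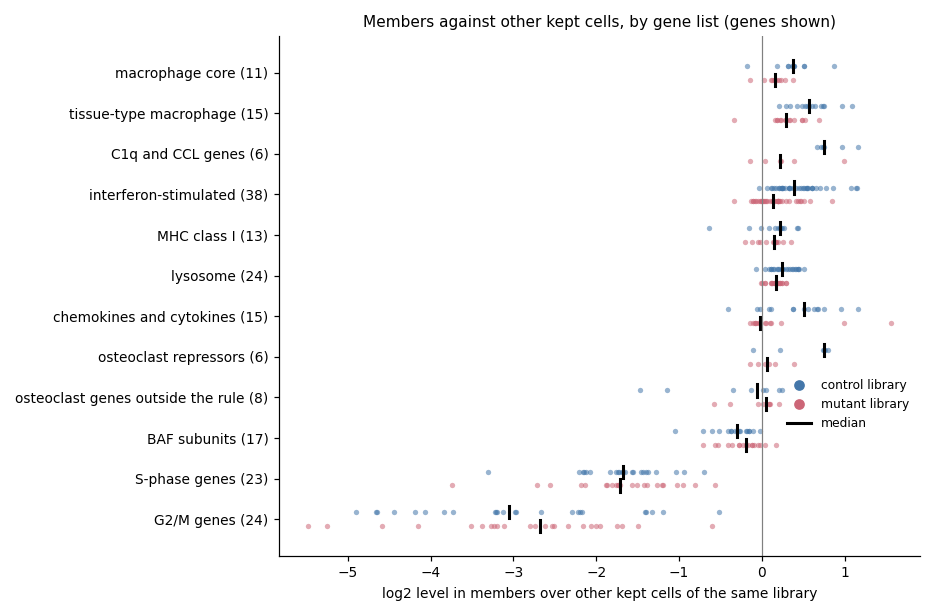
Log2 level of each listed gene in members over other kept cells of the same library (horizontal axis), by gene list, with the number of genes shown in brackets. Points are genes, upper rows the control and lower rows the mutant library, and black bars are medians. The S-phase and G2/M medians lie at -1.68 and -3.05 in the control library, and the control medians of the tissue-type, C1q and CCL, and repressor lists lie at 0.56, 0.75 and 0.74 against 0.29, 0.22 and 0.06 in the mutant library.

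Repressors of the OC fate were also compared between members and other cells. Of 6 genes that restrain OC formation, 4 were at least 1.5-fold higher in control members than in other control cells (among them Irf8, Id1 and Id2, with log2 ratios of 0.74, 0.76 and 0.80), and none was in the mutant library (0.39, -0.14 and 0.08 for these 3 genes), where 0.435% of all genes passed this fold against 3.18% in the control library. Irf8, a factor that blocks Nfatc1, had 52.0 CPM in control and 47.4 CPM in mutant members. Id2, an inhibitor of helix-loop-helix factors, had 196 and 191 CPM. Id1 had 54.4 CPM in control and 74.2 CPM in mutant members, a log2 ratio of 0.45 (0.23 to 0.67), whereas the intervals of Irf8 and Id2 included 0. The other kept cells had 112 CPM of Id2 in the control and 180 CPM in the mutant library. Against control cells with OC transcripts only, none of the 6 was 1.5-fold higher, with a median of 0.34 (0.553% of all genes were). Against control cells with both kinds 4 were, with a median of 0.90 (5.14% of all genes). In the mutant library the median against cells with OC transcripts only was -0.02.

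OC genes outside the rule were not uniformly low in members. Nfatc1, the master regulator of OCs, had 23.9 CPM (19.99 to 28.4) in control members and 52.9 CPM in others, and 23.2 CPM (19.5 to 27.4) and 30.4 CPM in the mutant library. Jdp2, an AP-1 family factor needed for OC formation, had 56.8 and 157 CPM in the control and 41.2 and 61.6 CPM in the mutant library. The remaining 6 genes at the level (Slc37a2, Ckb, Clcn7, Ostm1, Tcirg1 and Mitf) lay within 1.5-fold of the others in both libraries. RANK, the RANKL receptor encoded by Tnfrsf11a, had 60.03 CPM in control members and 70.2 CPM in others, and 84.2 and 89.4 CPM in the mutant library, so its transcripts were present in members.

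Set against each group apart, members were closest to the cells with OC transcripts only. Against those, 28 of 5060 genes (0.553%) were at least 1.5-fold higher and 54 (1.07%) lower in the control library, and 34 (0.672%) and 32 (0.632%) in the mutant library. Against cells with cycling transcripts only, 93 were higher and 397 lower in the control library and 48 and 318 in the mutant library. Against cells with both kinds, 260 were higher and 557 lower in the control library and 31 and 292 in the mutant library. The S-phase median against cells with OC transcripts only, which lack the 4 cycling genes too, was 0.11 and 0.16. Interferon-stimulated genes were level with those cells in the control library (median 0.00) and lower in the mutant library (-0.13). Slfn5 had 149 CPM in control cells with OC transcripts only, and Maf 90.5 CPM, so that these 2 genes were high in both groups without cycling transcripts. C1qa had 201 CPM in the same cells, well below the 393 CPM of control members.

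**Figure D3:**
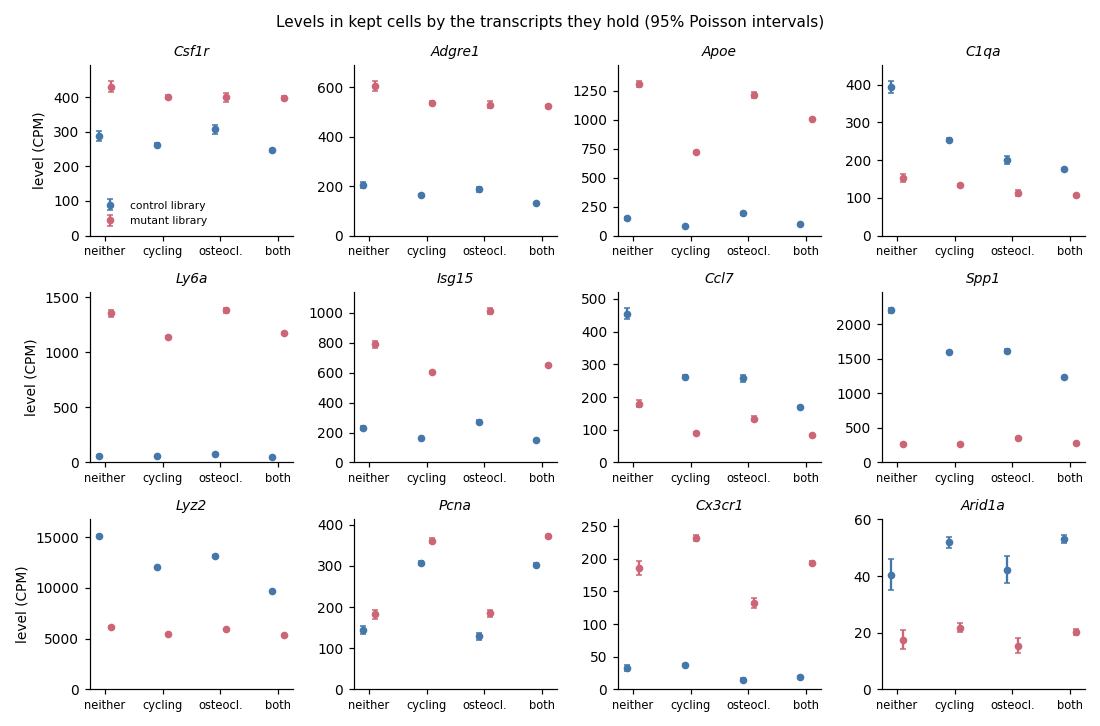
Levels (CPM, vertical axes) of 12 genes in kept cells with neither kind of transcript (members), cycling transcripts only, osteoclast transcripts only and both kinds, in the control and mutant libraries. Points are levels and lines 95% Poisson intervals. Ly6a, Apoe, Isg15 and Adgre1 lie higher in the mutant library in all 4 groups, Spp1, Lyz2, C1qa, Ccl7 and Arid1a lower, and Pcna is low in the 2 groups without cycling transcripts.

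Between the libraries, mutant members differed from control members mainly upward. Of 4898 genes averaging at least 20 CPM over the members of both libraries, 242 (4.94%) were at least 2-fold higher in mutant members and 47 (0.96%) at least 2-fold lower, with a median log2 ratio of 0.09. Under trimmed mean of M-values scaling the split was 187 and 73 genes, under median-of-ratios scaling 188 and 76, and without mitochondrial and ribosomal protein genes in the totals 203 and 58. In the other kept cells, 314 genes (6.41%) were higher and 53 (1.08%) lower. The 10 highest ratios belonged to Plac8, Ly6i, H2-Q7, Ly6a, AW112010, Ifit1bl1, Ms4a4c, Ifi206, Ccl5 and Ifi213.

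Ly6a, a surface antigen induced by interferon, had 60.2 CPM in control members and 1353 CPM in mutant members, a log2 ratio of 4.49 (4.33 to 4.65), with 52.2 and 1179 CPM in the others. Its UMIs came from 92 of 279 control and 258 of 321 mutant members. Plac8, a gene of monocytes and interferon responses, rested on few cells, with 6 UMIs in 1 control member and 407 UMIs in 43 mutant members. Its level was 67.9 CPM in mutant members and far higher in neutrophil-rich barcodes, with 1057 CPM in the control and 1483 CPM in the mutant library. AW112010, a long noncoding RNA of inflamed macrophages, had 12.6 and 270 CPM, and 1 control member held 53.6% of its control UMIs. For Ccl5, a T cell-attracting chemokine with 39.05 and 503 CPM, the 5 leading cells held 93.5% of the control and 77.0% of the mutant UMIs.

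Interferon-stimulated genes were higher in mutant members throughout the list. Of 39 genes at the level, 30 were at least 2-fold higher and none 2-fold lower, and 4.94% of all genes were higher by this fold. The median log2 ratio was 1.53, and 1.71 in the other kept cells. All 39 of 39 intervals lay above 0 in members, as did 20 of 24 in the lysosomal list. These intervals cover counting error only, and the share of all genes with such intervals is not given here. Isg15, a ubiquitin-like protein, had 230 CPM (218 to 243) in control and 790 CPM (768 to 813) in mutant members. Irf7, which amplifies the interferon response, had 131 and 684 CPM, Ifit1, a sensor of foreign RNA, 77.4 and 295 CPM, and Zbp1, a sensor of left-handed nucleic acids, 37.4 and 216 CPM. Genes of MHC class I antigen presentation were higher as well. Of 13 at the level, 9 were 2-fold higher and none lower, with a median of 1.29. B2m, the light chain of class I, had 1353 and 3903 CPM, and H2-T23 had 36.3 and 202 CPM. The other kept cells had 158 and 666 CPM of Isg15 and 1158 and 3498 CPM of B2m, so the libraries also differed in the cells outside the members.

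Interferon-stimulated genes are turned on through the interferon-stimulated response element, whose core was searched as GAAA, any 2 bases and GAAA again on both strands of the same 250 bases. The core was found in 16 of 34 listed genes with a window (47.1%) and in 936 of 27025 genes (3.46%). The 4 stretches shown belong to listed genes that were over 3-fold higher in mutant members, with the match nearest to the start in capitals (on the other strand it reads TTTC, any 2 bases, TTTC). The Ifit1 stretch holds 2 matches and the Isg15 stretch 3, of which 1 each is in capitals.
Ifit1 (chr19:34640779-34640838, plus strand): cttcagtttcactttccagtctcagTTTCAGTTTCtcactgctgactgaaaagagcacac
Ifit3 (chr19:34583382-34583441, plus strand): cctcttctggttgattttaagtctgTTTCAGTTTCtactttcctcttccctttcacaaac
Gbp2 (chr3:142620579-142620638, plus strand): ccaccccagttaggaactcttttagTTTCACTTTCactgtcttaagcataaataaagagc
Isg15 (chr4:156200850-156200909, minus strand): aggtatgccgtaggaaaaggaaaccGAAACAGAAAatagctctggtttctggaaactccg
The matches ended 75, 112, 49 and 56 bases before the annotated start. Listed genes with and without the core in this window had median log2 ratios of mutant over control members of 1.52 (14 genes) and 1.54 (17 genes). Ifit3 has a near-identical copy, Ifit3b, so reads could be split between them, and its values are uncertain.

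Other groups were split. Beside the counts that follow, 4.94% of all genes were 2-fold higher and 0.96% 2-fold lower in mutant members. Of 16 tissue-type macrophage genes, 4 were 2-fold higher in mutant members and 4 lower. Higher were Apoe, the lipid carrier, with 148 CPM in control and 1307 CPM in mutant members, the lysosomal protease gene Lgmn with 161 and 649 CPM, Ms4a7 with 309 and 889 CPM, and Maf. Lower were C1qa, C1qb (869 and 339 CPM), C1qc (358 and 166 CPM) and Folr2, a folate receptor (123 and 36.2 CPM), so that the summed levels of the C1q genes and of Apoe differed between the libraries in opposite directions. Of the monocyte list, 6 of 9 genes were 2-fold higher. These include Plac8, Ly6i, Ly6a and Ms4a4c (log2 ratios of 5.95, 5.63, 4.49 and 3.87), named above among the highest ratios. The count thus largely repeats those genes, of which Ly6a is induced by interferon, and is no separate evidence on monocyte identity. The fractalkine receptor Cx3cr1 was also higher with 32.7 and 185 CPM, and Vcan was lower with 40.1 and 12.3 CPM.

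Lysosomal genes had a median log2 ratio of 0.56, and 4 of 24 were 2-fold higher (among them Ctsc, Ctsd and Ctss). The cathepsin gene Ctss had 1094 and 3183 CPM and Ctsd 2929 and 6185 CPM. Of 15 chemokine and cytokine genes, 5 were 2-fold higher (Ccl4, Ccl5, Cxcl2, Cxcl14 and Il1rn) and 3 lower (Ccl7, Ccl12 and Spp1). Spp1, which encodes osteopontin, had 2204 CPM (2164 to 2243) in control and 266 CPM (253 to 279) in mutant members, a log2 ratio of -3.05.

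The lowest ratios outside the lists were spread over many cells, except for 1 gene. Emp2, an epithelial membrane protein, had 61.5 CPM in 157 control members and 2.34 CPM in 8 mutant members, a log2 ratio of -4.72 (-5.61 to -3.95). Uchl1, a ubiquitin hydrolase, had 143 and 20.9 CPM, and Fxyd2, a regulator of the sodium pump, had 39.6 and 2.67 CPM. Tubb6, Slc35e4 and Hacd1 were also among the 10 lowest. Timp1 had 70.8 and 0.33 CPM, but 377 of its 388 control UMIs were in the 1 member with stromal transcripts.

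Several lists showed no 2-fold difference between the members of the libraries. None of 11 OC entry genes, 8 OC genes outside the rule, 6 OC repressors, 16 S-phase genes or 10 targets of NRF2 passed this fold, which 4.94% of all genes passed upward and 0.96% downward. The 11 OC entry genes nevertheless had a median log2 ratio of 0.51, against 0.09 over all genes. The median of this list in the other kept cells was 0.64, so the libraries also differed in it outside the members. The intervals of all 11 lay above 0 in members, but they cover counting error only, and the share of all genes with such intervals is not given here. Of 17 BAF subunit genes, Arid1a was the 1 that differed by 2-fold. Arid1b, the paralog of Arid1a, had 18.8 and 30.5 CPM, a log2 ratio of 0.70 (0.34 to 1.06). Ribosomal protein genes had a median of -0.30, against 0.09 over all genes, and were lower in 76 of 79 cases. The share of all genes that were lower is not given here. They took 20.7% of control and 17% of mutant member UMIs, and so are part of the totals used for scaling.

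**Figure D4:**
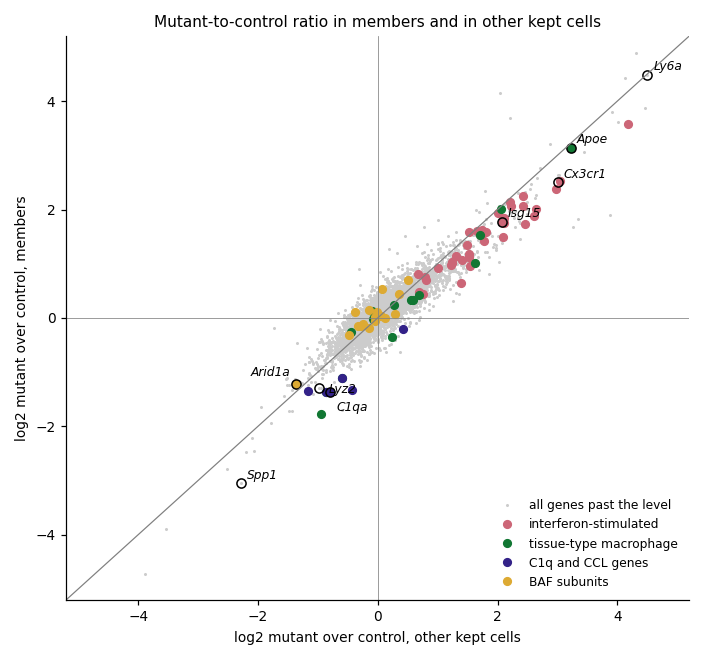
Log2 ratio of mutant over control in members (vertical axis) against that in other kept cells (horizontal axis), for genes past the level, with lists in colour and the line of equal ratios. 4 genes lie outside the plotted range. Interferon-stimulated genes lie right of and above 0 with medians of 1.53 in members and 1.71 in others, and C1qa lies below the line.

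The ratio of mutant over control in members was set against that in the other kept cells of the same libraries. Of 5060 genes, 53 (1.05%) were at least 1.5-fold above it in members and 70 (1.38%) at least 1.5-fold below it, with a median difference of 0.04 on the log2 scale. The difference was below 0 in 13 of 15 tissue-type and 19 of 24 lysosomal genes, and above 0 in 12 of 17 BAF subunit genes. The share of all genes below 0 is not given here. In the interferon-stimulated list the difference was below 0 in 36 of 38 genes, with a median of -0.24, and the counting interval lay below 0 in 19 of them. The level in control members was already above that in other control cells (median 0.39, 10 of 38 genes at least 1.5-fold higher, against 3.18% of all genes), whereas in the mutant library the median was 0.14 and 1 of 38 was (0.435% of all genes). Irf7 had 131 CPM in control members and 76.6 CPM in others, and 684 and 605 CPM in the mutant library, a difference of -0.60 (-0.72 to -0.48).

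The largest differences were those of Ifit1bl1 (2.11), Serpinb6b (1.54), Plac8 (1.53), Ccl5 (1.48) and Cenpe (1.38) upward, and of Arg1 (-1.57), H2-Eb1 (-1.50), Vcan (-1.11), Nupr1 (-1.05) and Cxcl2 (-0.996) downward. Ifit1bl1 rested on few cells, since 1 control member held 14 of 19 UMIs and 1 mutant member 105 of 371. It had 3.47 and 61.9 CPM in control and mutant members, below the 43.6 and 96.1 CPM in cells with OC transcripts only. Cenpe rested on 13 and 47 UMIs in control and mutant members, with an interval of 0.50 to 2.27. For H2-Eb1, 1 control member held 91 of 95 UMIs, and its difference was 0.19 without the cells that carried class II or stromal transcripts. Serpinb6b, a protease inhibitor, had 29.4 CPM in control members and 70.2 CPM in others, and 25.9 and 21.2 CPM in the mutant library. Members of both libraries were alike in it, and the other control cells stood apart. Cxcl2, a neutrophil-attracting chemokine, had 180 and 93.2 CPM in the control and 367 and 379 CPM in the mutant library, so that members stood above the others in the control library alone. Nfatc1 and Jdp2 were above, by 0.76 (0.41 to 1.104) and 0.89 (0.64 to 1.13), and it was the other kept cells that differed most between the libraries, with 52.9 against 30.4 CPM of Nfatc1 and 157 against 61.6 CPM of Jdp2.

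Members varied among themselves. At 10000 UMIs per cell the Fano factor, which is the variance of a gene's UMIs over cells divided by their mean, had a median of 1.11 over 4837 genes. The 8 highest belonged to Fth1 (173), Ccl5 (144), Cd74 (133), H2-Eb1 (85.1), Prtn3 (77.4), H2-Aa (70.3), Timp1 (63.6) and Malat1 (60.4). Fth1, the ferritin heavy chain, and Malat1, a nuclear RNA, were found in 279 and 277 of the control and 321 and 316 of the mutant members, and the other 6 had most of their UMIs in 5 or fewer cells of each library. The same 8 genes led at 5000 UMIs per cell.

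The interferon-stimulated list had a median of 61 UMIs per 10000 in control members (10th to 90th percentile 37 to 107, maximum 331) and of 141 UMIs in mutant members (97 to 201, maximum 868). The 10th percentile of the mutant members was thus above the median of the control members, and the ranges overlapped. The tissue-type list was wide in both libraries, with a median of 36 UMIs (10 to 90.4) and 46 UMIs (17 to 116). The lysosomal list had medians of 199 and 319 UMIs.

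Across members, the tissue-type and lysosomal lists were correlated (Spearman's rho 0.52 over 279 control cells and 0.61 over 321 mutant cells), and so were the interferon-stimulated and class I lists (0.46 and 0.45). The interferon-stimulated and tissue-type lists had a rho of 0.19 in the control library and 0.02 in the mutant library. These values share the library and the common depth of the cells and are given as a description.

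**Figure D5:**
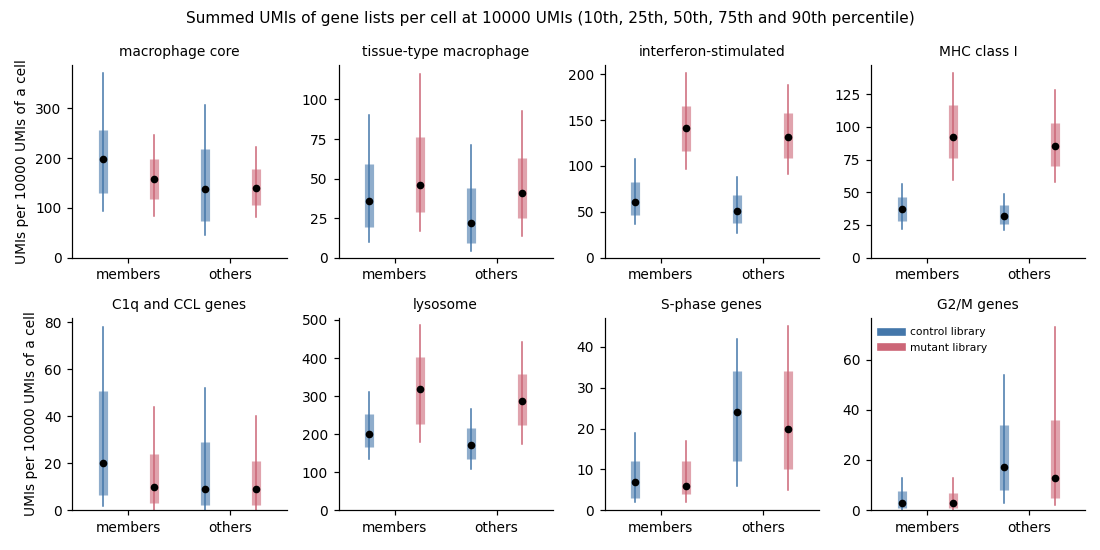
Summed UMIs of 8 gene lists per cell at 10000 UMIs (vertical axes) in members and other kept cells of the control and mutant libraries. Dots are medians, thick bars the 25th to 75th and thin lines the 10th to 90th percentile. The interferon-stimulated medians are 61 and 141 UMIs in members, and the C1q and CCL medians 20 and 10.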

How the data were processed

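Single-cell 3′ libraries of 2 genotypes, 1 library each, were analysed from the filtered matrices that the authors deposited. The deposited values are UMI counts for each gene and barcode, not normalized, and their headers name Cell Ranger 6.1.0. Reads that share a molecular identifier are counted once. The study's methods name an aggregation step, which may equalize depth by discarding reads, and the order of that step and these counts, whether counting used the strand and whether doublets were removed were not stated. The count table held 32544 genes.

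Groups came from the genotype in the labels. Cells were kept with at least 500 genes, at most 10% mitochondrial UMIs and at least 10000 UMIs, and members had 0 UMIs of the 8 genes of the rule and under 5% S100a8 and S100a9 UMIs. The members and all gene lists were chosen with earlier results of these data known, so their direction is not independent evidence. Of 422 listed symbols 421 were found in the table. UMIs were summed per library and group and scaled to CPM. Genes averaging at least 20 CPM entered the counts, called at 2-fold between libraries and 1.5-fold between members and others, and the 10 rule genes were left out of the latter. Floors for ranking genes at 0 were 3 UMIs. Poisson, conditional Poisson and Clopper-Pearson intervals were exact at 95%, that of a difference of 2 log2 ratios used the variance of the 4 counts, and that of a difference of shares was combined by square-and-add. With 1 library per group there was no test across samples.

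The genes named are the 10 highest and 10 lowest ratios of mutant over control in members, the same of members over others when alike in sign in both libraries, the 5 highest and 5 lowest differences of these ratios, the 8 highest Fano factors among genes with at least 0.2 UMIs per cell, and listed genes. Predicted genes and rule genes were left out. Some genes that this rule names are not reported here. Cells were thinned without replacement to 10000 UMIs for shares and sums per cell, and to 5000 as an alternative. Doublets were scored against simulated ones, and the highest scores removed at 0.8% for every 1000 barcodes as an alternative. Gene coordinates are GENCODE M39 (GRCm39), and promoters RefSeq (GRCm38.p6).

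Python 3.11.15, numpy 2.4.6, scipy 1.17.1, pandas 2.3.3, scikit-learn 1.9.0 and matplotlib 3.10.9 were used, and edgeR 4.0.16 in R 4.3.3 for trimmed mean of M-values scaling only. The ratios and intervals were tested on simulated data.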

Additional observations from a re-analysis of the deposited data

Results flagged for a closer look

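In 97 genes at the level, predicted, mitochondrial and rule genes left out, the counting intervals of members over other kept cells lay above 0 in one library and below 0 in the other, with the control above and the mutant below in 53. The 5 of these that are named or listed and passed 1.5-fold in at least 1 library are given here, and the difference between the libraries was not tested in any of them, since each genotype is 1 library. Arg1, the arginase of alternatively activated macrophages, had a log2 ratio of members over others of 0.58 in control and -0.98 in mutant cells, from 61 and 155 UMIs in members. Vcan, a proteoglycan of monocytes, had 0.34 and -0.77. Id1, an inhibitor of helix-loop-helix factors, had 0.76 and -0.14. Spp1, osteopontin, had 0.68 and -0.081. Serpinb6b went the other way, with -1.26 in control and 0.28 in mutant cells.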

How the results depend on the processing

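No paired analysis was possible because each genotype has 1 library. Of the alternatives, leaving out cells with stromal or class II UMIs and leaving out the leading cell of a gene were chosen after seeing the data. The share difference was 3.07 points with membership set at 10000 UMIs and 0.63 (-0.16 to 1.44) at a minimum of 20000 UMIs. It was 1.961 without doublets and 2.68 at a minimum of 5000 UMIs.

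Genes called at least 2-fold higher and lower in mutant members numbered 463 and 132 at a mean of 5 CPM and 1002 and 498 without a filter. Those lower numbered 73 under trimmed mean of M-values and 76 under median-of-ratios scaling. Genes 1.5-fold higher in members of both libraries, of the control and of the mutant library numbered 33, 242 and 49 at a minimum of 20000 UMIs, 82, 408 and 105 when 0 UMIs of Ccnb1, Ccnb2, Cdc20, Plk1 and Birc5 were also asked, 50, 338 and 86 at 5 CPM and 143, 837 and 571 without a filter. The control count was 268 under median-of-ratios scaling. Genes lower numbered 393, 828 and 439 with the 5 further genes at 0, 579, 1122 and 700 at 5 CPM and 882, 1857 and 1332 without a filter. The ratio in members was 1.5-fold above and below that in others in 12 and 34 genes with membership at 10000 UMIs, 160 and 133 at 20000, 186 and 184 with the further genes at 0, 321 and 247 at 5 CPM and 749 and 603 without a filter, and above in 33 under either scaling.

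Among medians of mutant over control members, the tissue-type list (0.19) was -0.025 with membership at 10000 UMIs, 0.034 at 20000, 0.046 with the further genes at 0, 0.063 under trimmed mean of M-values and 0.057 under median-of-ratios scaling. The macrophage core list was 0.45 with the further genes at 0, 0.46 and 0.45 under these scalings. The C1q and CCL list was -1.08 at 10000 and -1.17 at 20000 UMIs, and -1.46 under both scalings. Among medians of members over others, the tissue-type list was 0.70 in the control library at 20000 UMIs, 0.91 in control and 0.43 in mutant cells with the further genes at 0, and 0.68 in the control under median-of-ratios scaling. The S-phase list was -1.28 in both libraries at 10000 UMIs, and in the control -1.98 at 20000 and -2.07 with the further genes at 0.

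At a minimum of 20000 UMIs the sign of members over others turned for AW112010 (-0.66) and Ifi213 (-0.0051) in the control, H2-Eb1 (-1.03) in the mutant and Cd74 (-0.63 and -0.54) in both libraries. Without the class II and stromal cells it turned for the difference of H2-Eb1 (0.19) and for H2-Aa between mutant and control members (-0.53). The difference turned for Cdc20 (-0.29 at 10000 UMIs, -1.001 with the further genes at 0) and Nptx1 (-0.0089 at 10000 UMIs). The cause was not tested. In 154 further recomputations of the shares, counts and list medians the value stayed within 1.5 times (counts) or its counting spread. The median of all genes between the libraries moved from 0.09 to -0.03 and -0.04 under the trimmed mean and median-of-ratios scalings. The interferon-stimulated median lay between 1.40 and 1.59 under these alternatives. Depth limits the rule itself, as 0 UMIs of a gene in a cell does not show that the gene is off, and genes under 20 CPM in members rest on few UMIs.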

Other observations

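Early-response genes, which cells turn on within minutes of stimulation or handling, were described by no comparison above. Of 9 at the level, 0 were 2-fold apart between mutant and control members (of all genes 4.94% were higher and 0.960% lower by this fold), with a median log2 ratio of 0.34. Within the control library 2 of 9 were at least 1.5-fold higher in members than in other kept cells. These were Atf3 (66.1 against 33.4 CPM) and Zfp36 (60.6 against 35.2 CPM). None of the 9 was higher by this fold in mutant members. Of all genes, 3.18% were higher by this fold in control members and 0.435% in mutant members. Against control cells with OC transcripts only, 0 of the 9 passed this fold (0.553% of all genes did). Against control cells with cycling transcripts only 2 did (1.84% of all genes), and against those with both kinds 3 did (5.14%). Hmox1, the heme-degrading oxygenase, had 438 CPM in control members and 222 CPM in other control cells, and 263 and 190 CPM in the mutant library. Klf2, a factor of resting cells, had 83.9 and 43.2 CPM in the control and 110 and 85.7 CPM in the mutant library. Ccr2, a monocyte chemokine receptor, was low throughout but had 17.01 CPM in mutant members against 6.028 CPM in other mutant cells, and 102 UMIs in 23 members. Pgf and Nptx1 were lower in members than in others of both libraries, Nptx1 with 14.6 against 39.1 CPM in the control and 51.4 against 78.9 CPM in the mutant library. Mrc1, the mannose receptor, had 28.3 and 31.0 CPM in control and mutant members, and its interval of the log2 ratio included 0.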
